A study of Arabidopsis thaliana with 18 samples.

Results

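Leaf RNA of ERDL4 overexpressor 2 was compared with leaf RNA of wild type in Arabidopsis thaliana, ecotype Col-0. The comparison uses 6 of the 18 RNA-seq libraries of the series, 3 of overexpressor 2 and 3 of wild type, and 18703 of the 32833 genes in the count table held enough counts to be tested. Overexpressor 2 is one of a pair of lines that overexpress ERDL4 (AT1G19450), and the wild type is Col-0 without the transgene. Both groups were leaves of untreated plants 4 weeks old, grown in soil under short days. Overexpressor 1, with 3 libraries, entered the same fit and serves to show where overexpressor 2 stood apart from it. Neither the promoter of the transgene nor the plants pooled in a library are named by the labels, and reads of the transgene and of the resident gene were not told apart.

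Plant leaf cells keep much of their soluble sugar in the central vacuole. Carriers in the vacuolar membrane, the tonoplast, move glucose, fructose and sucrose in or out, and so set how much sugar the cytosol and nucleus meet. ERDL4 belongs to the ERD6-like carriers of this membrane. Sugar in the cytosol is known to lower transcripts of photosynthesis and to raise those of starch and anthocyanin synthesis, and it interacts with the hormones abscisic acid and jasmonate.

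Total counts were 17318810 to 17519589 per overexpressor 2 library and 19429580 to 23806098 per wild-type library. The 100 most abundant genes held 22.85% to 24.85% of the counts in overexpressor 2 and 30.73% to 36.77% in wild type. Replicates 2 and 3 of overexpressor 2 were closely alike, at a chi-square of 1.70 for each degree of freedom. Between replicate 1 and either of them it was 27.45 to 27.9, and between wild-type replicates 13.81 to 55.01. Replicates 2 and 3 of overexpressor 1, which enter the same estimate of spread, were alike too, at 2.07. Its other pairs stood at 61.98 and 66.06. Both pairs differed by more than counting noise, which does not show that they are independent samples. They were kept as separate samples in the main fit. If they are not independent, the p-values are too small, so counts with them merged are given below. The titles call the samples biological replicates but do not tell whether they are separate plants. The p-values therefore cover sample-to-sample spread alone, part of which may be technical. Wild-type replicate 2 lay toward overexpressor 2 on many gene lists, by 0.58 (median log2 difference from the wild-type mean) on the abscisic acid list and 0.65 on the cold list. A further limit lies in the table itself. Among protein-coding genes with over 90% of their span covered by a locus on the opposite strand, 81.3% (545 of 670) had 0 counts in all 6 libraries, against 22.1% of 20688 genes with no such overlap, so a count of 0 says little for a covered gene.

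ERDL4 held 604, 578 and 568 CPM in overexpressor 2, against 124, 111 and 152 CPM in wild type (CPM is counts in each 1000000 counts of a library, scaled by TMM). All 3 overexpressor 2 libraries thus lay above all 3 wild-type libraries, as the labels state. The log2 fold change was 2.18 ± 0.13 (SE, n = 3 each; edgeR quasi-likelihood test, adjusted p = 5.52e-05). The locus spans chromosome 1, 6731411 to 6735024, in TAIR10. ERDL6, the closest copy of ERDL4, held 71.2, 41.0 and 42.5 CPM in overexpressor 2, against 66.5, 50.8 and 62.2 CPM in wild type, and its change of -0.22 ± 0.21 did not pass the test (adjusted p = 0.43), although it did without overexpressor 2 replicate 1 (0.0202). Reads that fit both copies leave either level uncertain.

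Leaves of overexpressor 2 differed from wild type across much of the transcriptome. At an adjusted p under 0.05, 7867 genes were called (42.1% of those tested), of which 3851 (20.6%) were higher and 4016 (21.5%) lower in overexpressor 2. A change of at least 2-fold was called for 1469 genes (7.85%) upward and 1712 (9.15%) downward. The 3 overexpressor 2 libraries lay wholly above the wild-type libraries for 26.8% of genes and wholly below them for 26.2%. With replicates 2 and 3 of overexpressor 2 merged into 1 library, 3164 genes were called higher and 3129 lower. Without wild-type replicate 2 the counts were 4421 and 4090. With library size as the only scaling, the median log2 fold change over all genes moved to 0.282, against 0.0163 with TMM, and 74.4% of calls were higher, against 49% with TMM. List counts below are read against the shares of 20.6% and 21.5%, and a median against the all-gene 0.0163.

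The genes with the highest fold changes were led by the pigment pathway. Of the 10 highest among called genes with a symbol, a mean of at least 5 CPM and no overlap between the groups, 7 serve anthocyanin synthesis or transport, namely UGT79B1 (8.67 on the log2 scale), DFR, PAP2, LDOX, 5MAT, TT8 and GSTF12. The other 3 were LEA7 (7.99 ± 1.72), a late-embryogenesis protein of drying tissue, SAG29 (7.11 ± 1.14), which encodes the sugar carrier SWEET15, and TSPO (7.08 ± 1.06), a membrane protein induced by abscisic acid. SAG29 held 92.9, 74.7 and 81.8 CPM in overexpressor 2, against 0.564, 1.11 and 0.148 CPM in wild type, so the groups were far apart in every library. LEA7 shares part of its span with the locus AT1G52695.

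Among the 10 lowest called genes chosen in the same way, BZIP61, a transcription factor gene, had 3 counts in all in overexpressor 2 and 1034 in wild type, a ratio of wild type over overexpressor 2 of 331 with a 95% counting interval of 113 to 1610. EXPA8 (-7.80 ± 0.80) and XTH6 (-5.81 ± 0.73) encode proteins that loosen the cell wall. LHCB1.4 (-5.96 ± 0.59) encodes a light-harvesting protein, GASA6 (-5.70 ± 0.42) a gibberellin-regulated peptide and ESE3 (-5.35 ± 0.50) an ethylene response factor. DIN10 (-6.44 ± 0.63) and BGAL4 (-5.44 ± 0.90) are genes of sugar shortage. PDF1.2b (-6.43 ± 1.29), a defensin, and BG3 (-5.18 ± 1.42), a beta-glucanase, serve defence. The call of BG3 was lost at an adjusted p of 0.0678 to 0.0692 without overexpressor 2 replicate 2 or 3. PDF1.2b held 0.112, 0.622 and 0.623 CPM in overexpressor 2, against 8.26, 91.8 and 20.8 CPM in wild type, where it varied widely.

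**Figure D1:**
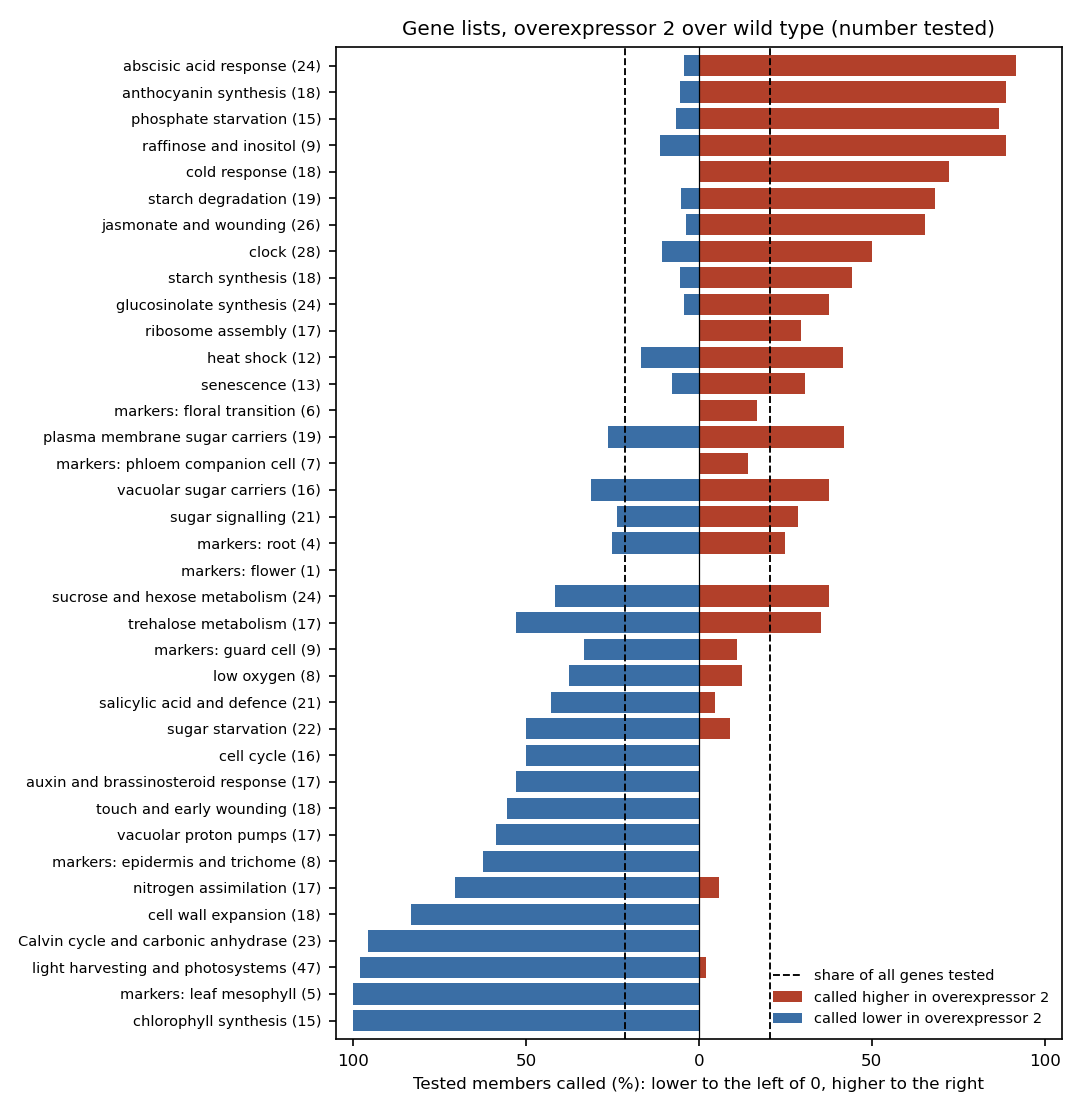
Share of tested members of each gene list called higher (bars to the right) or lower (bars to the left) in overexpressor 2 than in wild type, in percent, with the number tested in brackets. Dashed lines mark the shares over all genes tested, 20.6% higher and 21.5% lower. Abscisic acid (91.7%), anthocyanin (88.9%), raffinose and inositol (88.9%) and phosphate starvation genes (86.7%) lie farthest to the right, chlorophyll and photosystem genes farthest to the left.

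Carriers of the vacuolar membrane changed in both directions. Of 16 tested, 6 rose, 5 fell and 5 did not pass the test, with a median of -0.09, which became 0.18 when libraries were scaled by size alone. It lay between -0.04 and 0.00 without overexpressor 2 replicate 2, overexpressor 2 replicate 3 or wild-type replicate 1. TST2, which loads sugar into the vacuole, held 152, 240.4 and 239 CPM in overexpressor 2, against 58.4, 79.3 and 61.9 CPM in wild type, and rose by 1.66 ± 0.24 (adjusted p = 0.000786). Its overexpressor 2 levels all exceeded the wild-type ones, with replicate 1 the lowest of the 3. TST1, a second importer, held 29.8, 35.8 and 37.0 CPM in overexpressor 2, against 59.4, 44.4 and 69.7 CPM in wild type and fell by 0.76 ± 0.18 (adjusted p = 0.00734). The 2 importers thus moved in opposite directions, and the groups overlapped for neither. TST3 stood near 1 CPM or below in all 6 libraries and its change of 0.66 ± 0.51 did not pass the test.

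Among the facilitators, SWEET2 and SWEET17 parted in the same way. SWEET2, a glucose carrier of the tonoplast, held 4.48, 2.33 and 1.82 CPM in overexpressor 2, against 20.4, 13.5 and 24.3 CPM in wild type, and fell by 2.76 ± 0.35 (adjusted p = 0.000485). SWEET17, a fructose carrier, held 91.7, 79.1 and 76.0 CPM in overexpressor 2, against 58.1, 55.4 and 60.4 CPM in wild type and rose by 0.51 ± 0.15 (adjusted p = 0.022). For both genes the highest library of the lower group lay below the lowest library of the other. The call of SWEET17 was lost at an adjusted p of 0.065 without overexpressor 2 replicate 1. SWEET16, the other fructose facilitator, did not pass the test (-0.41 ± 0.30). Of the ERD6-like and glucose carriers, ESL1 (1.66 ± 0.24) and VGT2 (1.06 ± 0.15) rose, as did the sucrose exporter SUC4 (1.15 ± 0.20). ERD6 itself fell by 2.50 ± 0.35, and SFP1 and SFP2 fell by 0.58 ± 0.10 and 0.84 ± 0.18. SFP1 and SFP2 are near-identical neighbours, so their split of reads is uncertain.

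**Figure D2:**
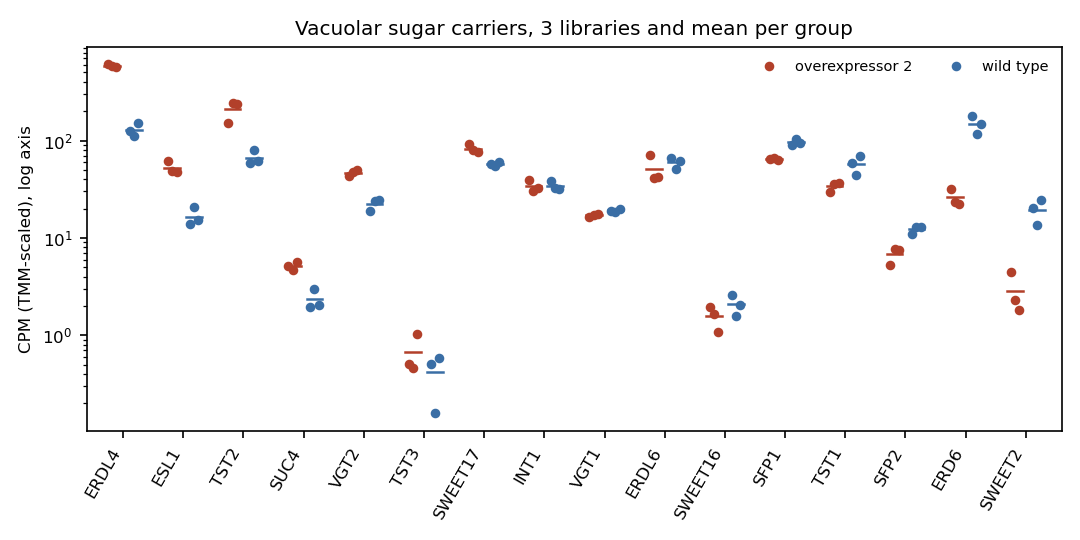
CPM (log axis) of the 16 vacuolar sugar carriers in each library of overexpressor 2 (left of each pair) and wild type (right), ordered by fold change, where points are libraries and bars group means. ERDL4 and TST2 stand higher in all overexpressor 2 libraries, ERD6 and SWEET2 lower.

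The tonoplast's pumps and water channels fell or did not pass the test. Of 17 genes for the vacuolar proton pumps and aquaporins, 10 fell and none rose, with a median of -0.39, which was -0.12 with library size as the only scaling, where 5 fell. TIP1-1, an aquaporin, held 73.3, 36.8 and 37.4 CPM in overexpressor 2, against 182, 125 and 198 CPM in wild type, and fell by 1.78 ± 0.29 (adjusted p = 0.00139). The aquaporin genes TIP2-1 fell by 3.00 ± 0.48 and TIP1-2 by 1.58 ± 0.24. The proton pump subunits VHA-c1 (-0.72 ± 0.14) and VHA-B2 (-0.62 ± 0.13) fell less. TIP2-1 has 33.4% of its span covered by loci on the opposite strand.

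Plasma membrane sugar carriers also moved both ways, with 8 of 19 tested members higher and 5 lower (median 0.10, which was 0.25 without wild-type replicate 1 and 0.17 without wild-type replicate 3). Facilitators of the SWEET family account for 5 of the 8 that rose. SWEET12, which releases sucrose for phloem loading, held 96.9, 51.3 and 55.4 CPM in overexpressor 2, against 9.33, 11.1 and 6.21 CPM in wild type, and rose by 2.93 ± 0.36 (adjusted p = 0.000531). SWEET13, its relative, rose by 2.21 ± 0.26 and SWEET4, a hexose carrier, by 3.20 ± 0.49. In all 3 genes every overexpressor 2 library exceeded every wild-type library. STP5 (2.38 ± 0.42) and STP7 (1.17 ± 0.18), proton-coupled monosaccharide carriers, rose as well. STP1, the main importer of hexoses from the apoplast in many tissues, held 32, 16.7 and 16.1 CPM in overexpressor 2, against 124, 60.1 and 87.4 CPM in wild type, and fell by 2.07 ± 0.45 (adjusted p = 0.00739). PLT6 (-2.21 ± 0.40), a polyol carrier, STP4 (-0.72 ± 0.19), STP14 (-0.47 ± 0.15) and the inositol carrier INT4 (-0.66 ± 0.22) fell too. The number lower was 2 without wild-type replicate 1, 3 without wild-type replicate 3 and 2 with library size as the only scaling. SUC2, which loads sucrose into the phloem, held 301, 266 and 278 CPM in overexpressor 2, against 243, 264 and 280.1 CPM in wild type, and its change of 0.10 ± 0.11 did not pass the test (adjusted p = 0.451).

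In sucrose and hexose metabolism 9 of 24 tested genes rose and 10 fell (median 0.16, which was 0.08 without overexpressor 2 replicate 1 and 0.25 without wild-type replicate 3). Genes that make sucrose were divided. The sucrose phosphate synthase SPS1F held 464, 502 and 487 CPM in overexpressor 2, against 177, 242 and 181 CPM in wild type, and rose by 1.28 ± 0.17 (adjusted p = 0.000548), while SPS2F rose by 1.71 ± 0.25, SPS4F by 0.56 ± 0.15 and SPS3F fell by 1.44 ± 0.51. The call of SPS4F was lost at an adjusted p of 0.0565 to 0.0612 without overexpressor 2 replicate 2 or 3 or wild-type replicate 1. That of SPS3F was lost at an adjusted p of 0.0535 to 0.218 without overexpressor 2 replicate 1, 2 or 3 or wild-type replicate 1 or 3. The cytosolic fructose bisphosphatase cyFBP, an earlier step toward sucrose, went the other way, with 159, 163 and 164 CPM in overexpressor 2, against 351, 272 and 333 CPM in wild type, and fell by 0.98 ± 0.14 (adjusted p = 0.000663). Enzymes that split sucrose moved both ways as well. The vacuolar invertases VAC-INV (1.51 ± 0.33) and ATBETAFRUCT4 (1.31 ± 0.37) rose, as did the sucrose synthase SUS3 (2.44 ± 0.39) and the cytosolic invertase CINV2 (0.99 ± 0.20), while CINV1 fell by 1.66 ± 0.25 (adjusted p = 0.000862). The call of ATBETAFRUCT4 was lost at an adjusted p of 0.0506 to 0.0625 without overexpressor 2 replicate 1 or wild-type replicate 1 or 2. The hexokinase HXK2 rose by 1.58 ± 0.14. HXK1, the glucose sensor, held 76.3, 75.9 and 76.6 CPM in overexpressor 2, against 63.0, 59.2 and 58.6 CPM in wild type and rose by 0.34 ± 0.09 (adjusted p = 0.0127), a small change with no overlap between the groups.

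Trehalose metabolism makes the signal sugar trehalose 6-phosphate, and its class II synthase genes are markers of sugar status. Of 17 tested, 6 rose and 9 fell (median -0.46). TPS5, a gene raised by sugar, held 151, 201 and 205 CPM in overexpressor 2, against 53.3, 62.5 and 44.5 CPM in wild type, and rose by 1.80 ± 0.18 (adjusted p = 0.000165). TPS11 held 16.1, 9.79 and 11.1 CPM in overexpressor 2, against 66.9, 53.2 and 67.2 CPM in wild type, and fell by 2.34 ± 0.20 (adjusted p = 0.000113). TPS9, which like TPS11 is raised by sugar shortage, fell by 2.11 ± 0.22, and TPPB, a phosphatase gene, by 3.46 ± 0.40. The phosphatase genes TPPJ (1.67 ± 0.36), TPPG (1.23 ± 0.29), TPPE (1.14 ± 0.15) and TPPF (0.82 ± 0.16) and the synthase TPS6 (0.37 ± 0.10) rose. TPS1, the main active synthase, did not pass the test (0.31 ± 0.15, adjusted p = 0.127), although it did without overexpressor 2 replicate 1 (0.00903).

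Of 21 tested genes of sugar signalling, 6 rose and 5 fell (median 0.08). With library size as the only scaling 11 rose and 4 fell (median 0.34). The median was 0.17 without overexpressor 2 replicate 1, 0.13 without wild-type replicate 1 and 0.27 without wild-type replicate 2. ANAC089, a membrane-bound NAC transcription factor linked to fructose signalling, held 58.4, 48.4 and 47.9 CPM in overexpressor 2, against 12.2, 18.3 and 10.2 CPM in wild type, and rose by 1.93 ± 0.22 (adjusted p = 0.000278). The bZIP factor bZIP11 rose by 2.07 ± 0.25, while bZIP63 fell by 2.53 ± 0.32. AKINBETA1 (-2.53 ± 0.25) and SNF4 (-0.48 ± 0.09), subunits of the energy-sensing kinase SnRK1, fell. BT2 held 0.112, 0 and 0.104 CPM in overexpressor 2, against 1.33, 1.0 and 1.53 CPM in wild type and fell by 4.07 ± 0.61. The catalytic subunit KIN10 rose by 0.71 ± 0.15, and TOR kinase did not pass the test (0.08 ± 0.19).

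Genes that plants raise under sugar shortage were lower more often than higher, with 11 of 22 tested below wild type, 2 above it and 9 short of the threshold (median -0.84). DIN10, related to raffinose synthases, held 0.224, 0.414 and 0.415 CPM in overexpressor 2, against 46.9, 20.002 and 26.6 CPM in wild type. DIN11 fell by 4.54 ± 0.79 and SEN5 by 2.99 ± 0.42, and AKINBETA1, TPS9 and TPS11, named above, belong here too. In DIN10 the overexpressor 2 libraries were all below 1 CPM and the wild-type libraries all at 20 CPM or above. Against this trend, the branched-chain aminotransferase gene BCAT2 held 13.7, 14.4 and 14.8 CPM in overexpressor 2, against 0.769, 3.58 and 1.48 CPM in wild type, and rose by 2.88 ± 0.41 (adjusted p = 0.000883), and EXL4 rose by 1.08 ± 0.31, a call lost at an adjusted p of 0.0609 to 0.0714 without overexpressor 2 replicate 1 or wild-type replicate 1 or 3. ASN1, asparagine synthetase and the classic gene of darkness and starvation, did not pass the test (0.63 ± 0.31, adjusted p = 0.134).

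In both arms of starch metabolism more genes rose than fell. In starch synthesis 8 of 18 tested genes rose and 1 fell (median 0.25). APL3, a large subunit of the enzyme that makes ADP-glucose, held 461, 521 and 507 CPM in overexpressor 2, against 69.6, 91.4 and 56.3 CPM in wild type, and rose by 2.78 ± 0.19 (adjusted p = 5.52e-05). GPT2, which imports glucose 6-phosphate into plastids, held 126, 216 and 219.8 CPM in overexpressor 2, against 2.36, 12.7 and 1.53 CPM in wild type, and rose by 5.08 ± 0.82 (adjusted p = 0.00187). Wild-type replicate 2 was the highest of the wild-type libraries for both genes, yet far below overexpressor 2. APL4 (4.18 ± 0.49), the granule-bound starch synthase GBSS1 (3.27 ± 0.28) and the branching enzyme gene SBE2.1 (1.94 ± 0.18) rose as well. APL1, the usual leaf subunit, fell by 0.55 ± 0.11, although loci on the opposite strand cover 80.8% of its span.

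In starch degradation 13 of 19 tested genes rose and 1 fell (median 0.72). SEX4, a phosphatase that acts on starch, held 322, 399 and 402 CPM in overexpressor 2, against 134, 154 and 121 CPM in wild type, and rose by 1.46 ± 0.13 (adjusted p = 0.000126). The debranching enzyme gene ISA3 rose by 1.77 ± 0.20, the maltose exporter gene MEX1 by 1.51 ± 0.18 and the beta-amylase gene BAM3 by 0.92 ± 0.14. In ISA3, overexpressor 2 replicate 1 was the lowest of its group, with 240.4, 384 and 401 CPM, against 88.6, 118 and 93.3 CPM in wild type. BAM9, a beta-amylase without activity of its own, was the gene that fell (-1.08 ± 0.17).

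Photosynthesis genes were lower almost throughout. Of 47 tested genes for light harvesting, the photosystems and electron transport, 46 fell and 1 rose, with a median of -1.31. All 46 lay wholly below the wild-type libraries, against 26.2% of all genes tested, in the same libraries that gave the calls. PSAN, a subunit of photosystem I, held 541, 582 and 561 CPM in overexpressor 2, against 2795, 1713 and 2845 CPM in wild type, and fell by 2.13 ± 0.19 (adjusted p = 0.000109). LHCB1.4 held 164, 98.5 and 102 CPM in overexpressor 2, against 7956, 4695 and 10010.0 CPM in wild type, and LHCB2.3 held 186, 90.3 and 96.7 CPM in overexpressor 2, against 2955, 1550.1 and 3251 CPM in wild type. Wild-type replicate 2 was the lowest wild-type library for all 3 genes and still well above overexpressor 2. PSAF (-1.82 ± 0.20), PSAD-2 (-1.62 ± 0.15) and PSAH2 (-1.58 ± 0.16), further subunits of photosystem I, fell too. The gene that rose was LHCB7, a rarely expressed light-harvesting protein, with 55.6, 52.7 and 51.9 CPM in overexpressor 2, against 18.6, 22.8 and 19.1 CPM in wild type (1.4 ± 0.18, adjusted p = 0.000479). The LHCB1 and LHCB2 genes are near-identical copies, so the split of reads among them is uncertain, and opposite-strand loci cover 37.6% of LHCB2.3. In bulk tissue, fewer cells of a type and less RNA per cell cannot be told apart. Many of these genes are among the 100 most abundant, and without those 100 genes 14 of the list were left in the test, of which 13 fell.

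The window before PSAF is shown for the I-box, a motif (GATAAG on either strand, in capitals) known from light-regulated plant genes. Of the photosystem windows 25.5% (12 of 47) held it, as did 30.8% of the jasmonate windows and 5.56% to 17.9% of those of the other lists searched. The share was 16.8% before genes called lower and 13.6% before genes called higher. It was 14.6% of the 300-base windows before the 18623 tested genes that have such a window. The sequence is RefSeq TAIR10.1, chr1:11216142-11216441, minus strand, ending at the annotated gene start.
PSAF: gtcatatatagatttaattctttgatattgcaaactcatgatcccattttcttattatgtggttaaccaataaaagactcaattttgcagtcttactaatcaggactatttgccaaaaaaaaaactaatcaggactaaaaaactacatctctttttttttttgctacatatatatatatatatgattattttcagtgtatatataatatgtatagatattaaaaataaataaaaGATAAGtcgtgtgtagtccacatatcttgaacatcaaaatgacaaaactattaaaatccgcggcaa

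**Figure D3:**
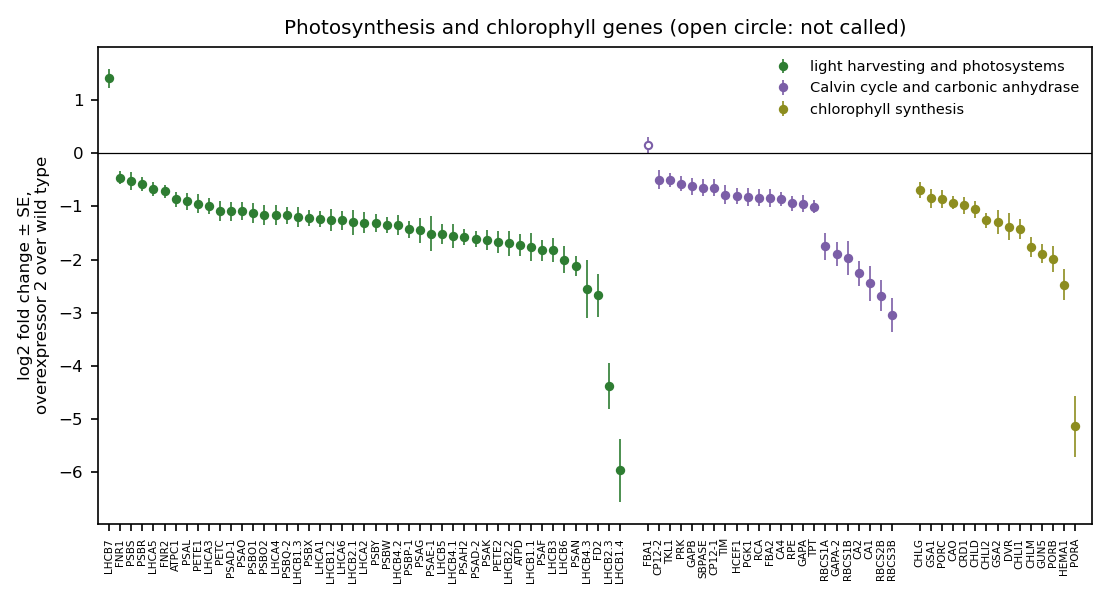
Log2 fold change of overexpressor 2 over wild type, with its SE, for each tested gene of light harvesting and the photosystems, the Calvin cycle with carbonic anhydrases, and chlorophyll synthesis. All but LHCB7 and FBA1 lie below 0, and FBA1 is the 1 gene not called.

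Of 23 tested genes of the Calvin cycle and carbonic anhydrase, 22 fell and none rose (median -0.84). CA2, a carbonic anhydrase, held 232, 288 and 288 CPM in overexpressor 2, against 1449, 833 and 1595 CPM in wild type, and fell by 2.26 ± 0.23 (adjusted p = 0.000165). The Rubisco small subunit gene RBCS3B fell by 3.04 ± 0.31 and RBCS2B by 2.68 ± 0.29, with the reservation that these neighbouring copies share sequence. GAPA-2, a glyceraldehyde phosphate dehydrogenase subunit, fell by 1.89 ± 0.22. TPT, which exports triose phosphate from the chloroplast, held 1133, 1242 and 1174 CPM in overexpressor 2, against 2406, 2151 and 2560.5 CPM in wild type and fell by 1.0 ± 0.13. In each of these 5 genes the groups did not overlap. All 15 tested genes of chlorophyll synthesis fell (median -1.30). GUN5, the large subunit of magnesium chelatase, held 772, 969.7 and 952 CPM in overexpressor 2, against 3572, 2493 and 3913 CPM in wild type, and fell by 1.89 ± 0.18 (adjusted p = 0.000158). PORA, a light-dependent reductase gene, fell by 5.13 ± 0.57, PORB by 1.99 ± 0.24, the methyltransferase gene CHLM by 1.76 ± 0.18 and CHLI2, another chelatase subunit, by 1.27 ± 0.15.

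Anthocyanin synthesis genes stood at the other end. Of 18 tested, 16 rose, TTG1 fell and EGL3 did not pass the test, with a median of 5.25. Among the enzymes, DFR, which turns dihydroflavonols toward anthocyanin, held 431, 476 and 465 CPM in overexpressor 2, against 0.41, 4.16 and 0.0986 CPM in wild type, and rose by 8.21 ± 0.99 (adjusted p = 0.000569). The glycosyltransferase UGT79B1 held 145, 129.9 and 129 CPM in overexpressor 2, against 0.103, 0.737 and 0.148 CPM in wild type, and rose by 8.67 ± 0.68 (adjusted p = 0.000138). LDOX, the enzyme after DFR, held 412, 375 and 376 CPM in overexpressor 2, against 1.44, 4.58 and 0.74 CPM in wild type. Wild-type replicate 2 was the highest wild-type library for all 3, at most 4.58 CPM. UGT75C1 (5.64 ± 0.43), UGT78D2 (3.3 ± 0.28), the acyltransferase gene 5MAT (7.33 ± 0.77) and GSTF12 (7.11 ± 0.70), needed to move the pigment to the vacuole, rose as well.

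The regulators of the pathway, MYB and bHLH factors bound to the WD-repeat protein TTG1, did not move alike. PAP1, the main MYB activator, held 214, 166 and 169.7 CPM in overexpressor 2, against 5.59, 7.32 and 2.52 CPM in wild type, and rose by 5.16 ± 0.47 (adjusted p = 0.000188). PAP2, its close relative, held 49.7, 26.9 and 26.1 CPM in overexpressor 2, against 0.0513, 0.211 and 0.197 CPM in wild type, and the bHLH gene TT8 held 17.5, 17.0 and 17.65 CPM in overexpressor 2, against 0, 0.211 and 0.0986 CPM in wild type. TTG1 itself held 38.1, 31.7 and 31.8 CPM in overexpressor 2, against 63.8, 56.0 and 47.9 CPM in wild type, and fell by 0.72 ± 0.15 (adjusted p = 0.00422). F3H, a central enzyme of the pathway, could not be judged. Its counts were 3 in all in overexpressor 2 and 0 in wild type, and a locus on the opposite strand covers 94.5% of its span.

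**Figure D4:**
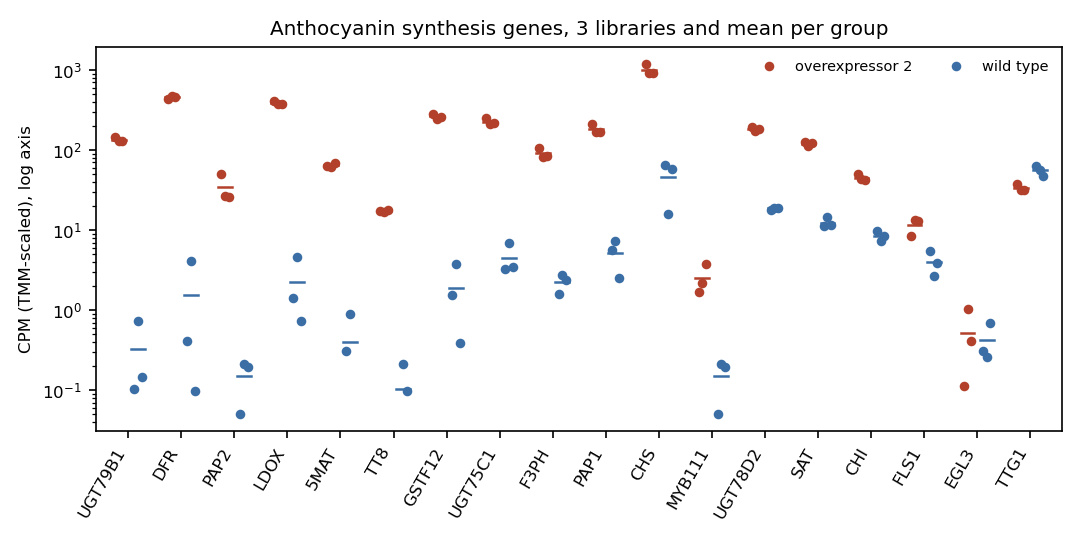
CPM (log axis) of the 18 tested anthocyanin genes in each library of overexpressor 2 (left of each pair) and wild type (right), ordered by fold change, with bars at group means. Libraries at 0 CPM (5MAT in wild-type replicate 3 and TT8 in wild-type replicate 1) have no point. The groups overlap for EGL3 alone.

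Genes of the abscisic acid response, a hormone of drought and of seed maturation, were higher in nearly every case tested. Of 24 tested, 22 rose, CYP707A3 fell and AAO3 did not pass the test (median 2.26). Receptor-proximal phosphatases, which restrain the pathway, were among them. AHG3 held 602, 497 and 496 CPM in overexpressor 2, against 72.5, 122 and 73.2 CPM in wild type, and rose by 2.58 ± 0.28 (adjusted p = 0.000237). HAB1 rose by 2.61 ± 0.31 and ABI2 by 2.40 ± 0.29. HAI1, a phosphatase gene also on the senescence list, held 95.7, 62.6 and 61.6 CPM in overexpressor 2, against 0.718, 3.16 and 0.345 CPM in wild type, and rose by 5.71 ± 0.80 (adjusted p = 0.000978). The transcription factor genes ABF2 (1.91 ± 0.21) and ABF3 (1.79 ± 0.23) rose too. In all of these, wild-type replicate 2 was the highest wild-type library and no library of either group crossed over. NCED3, which makes the hormone's precursor, rose by 2.16 ± 0.43. CYP707A3, which breaks the hormone down, held 2.97, 1.76 and 2.91 CPM in overexpressor 2, against 2.92, 10.7 and 6.41 CPM in wild type with overlap between the groups, and its fall of 1.39 ± 0.45 (adjusted p = 0.033) was lost at an adjusted p of 0.063 to 0.116 without overexpressor 2 replicate 1, 2 or 3 or wild-type replicate 2 or 3.

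Cold-response genes and those of raffinose and inositol metabolism followed. In the cold list 13 of 18 tested genes rose and none fell (median 1.66). COR15A, which protects chloroplast membranes, held 2278, 1862 and 1905 CPM in overexpressor 2, against 254, 394 and 181 CPM in wild type, and rose by 2.87 ± 0.35 (adjusted p = 0.000454). The dehydrin gene LTI30 rose by 4.12 ± 0.49 and COR413IM1 by 1.67 ± 0.23. COR6.6 rose by 2.09 ± 0.30, with the reservation that it is a near copy of KIN1. Of the CBF factors that drive this list, CBF3 rose (2.24 ± 0.34), while CBF1 (0.64 ± 0.38) and CBF2 (0.52 ± 0.26) passed the test only without wild-type replicate 2, among the libraries left out in turn. In raffinose and inositol metabolism 8 of 9 tested genes rose and MIPS3 fell (median 1.65). MIOX1, an inositol oxygenase, held 54.4, 47.3 and 43.9 CPM in overexpressor 2, against 4.87, 7.47 and 4.24 CPM in wild type, and rose by 3.13 ± 0.26 (adjusted p = 0.000109). SIP2, a raffinose-splitting galactosidase, rose by 3.37 ± 0.48 and the galactinol synthase gene GOLS1 by 2.42 ± 0.31.

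The windows before RD29B and COR78 (RD29A), neighbouring genes and textbook targets of abscisic acid and cold, are shown for the motifs they are known for. RD29B held 239.6, 167 and 167 CPM in overexpressor 2, against 4.05, 4.16 and 0.888 CPM in wild type, and rose by 5.98 ± 0.83. COR78 held 2526, 2469.5 and 2472 CPM in overexpressor 2, against 138, 428 and 158 CPM in wild type, and rose by 3.37 ± 0.47. The ABRE core is ACGTG on either strand, which overlaps the G-box CACGTG. It occurred in 66.7% of the abscisic acid windows (16 of 24) and 50% of the cold windows (9 of 18). Clock windows had 64.3%, jasmonate 61.5%, photosystem 44.7%, anthocyanin 38.9%, cell wall 27.8% and phosphate windows 13.3%. The share was 26% of all windows, 32.2% of those before genes called higher and 24% of those before genes called lower. The DRE core (CCGAC on either strand) occurred in 44.4% of the cold windows (8 of 18), against 15.2% of all. It also occurred in 25% of the abscisic acid windows and 19.2% of the jasmonate windows, and in 5.56% to 14.3% of those of the other lists searched. Genes called higher had 18% and genes called lower 13%. Capitals mark the ABRE cores before RD29B and the DRE cores before COR78, in RefSeq TAIR10.1, RD29B at chr5:21236721-21237020 and COR78 at chr5:21240417-21240716, both on the plus strand and ending at the annotated gene start. A match describes these letters and shows no binding.
RD29B: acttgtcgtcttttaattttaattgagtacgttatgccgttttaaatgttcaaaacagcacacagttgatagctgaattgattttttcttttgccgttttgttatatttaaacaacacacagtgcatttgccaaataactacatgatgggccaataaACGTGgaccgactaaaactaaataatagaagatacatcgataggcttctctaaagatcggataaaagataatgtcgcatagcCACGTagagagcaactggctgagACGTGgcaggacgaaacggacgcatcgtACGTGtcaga
COR78: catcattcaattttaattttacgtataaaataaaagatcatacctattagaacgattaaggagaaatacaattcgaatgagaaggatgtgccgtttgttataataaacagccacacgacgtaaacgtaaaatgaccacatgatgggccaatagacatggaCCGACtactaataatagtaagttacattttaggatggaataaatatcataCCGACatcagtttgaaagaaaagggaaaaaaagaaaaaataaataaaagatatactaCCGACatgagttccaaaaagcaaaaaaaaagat

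Phosphate-starvation genes rose in overexpressor 2 plants that no label describes as short of phosphate. Of 15 tested, 13 rose, PHO1 fell and PHR1, the master regulator of the list, did not pass the test (-0.14 ± 0.08), with a median of 1.79. Genes that swap phospholipids for other lipids were prominent. SQD2, of sulfolipid synthesis, held 527, 363 and 364 CPM in overexpressor 2, against 106, 151 and 104.9 CPM in wild type, and rose by 1.79 ± 0.19 (adjusted p = 0.000219). MGD3, of galactolipid synthesis, held 43.6, 33.7 and 34.5 CPM in overexpressor 2, against 2.92, 7.11 and 2.76 CPM in wild type, and rose by 3.13 ± 0.31 (adjusted p = 0.000214). SQD1 rose by 1.36 ± 0.14 and MGD2 by 1.74 ± 0.19. The 13 that rose also include PHO2 (1.57 ± 0.25), whose product removes phosphate carriers, so the count does not hold genes of 1 role alone. PHO1, which loads phosphate into the xylem, fell by 0.61 ± 0.18 (adjusted p = 0.021). The call of PHO1 was lost at an adjusted p of 0.0726 to 0.0981 without overexpressor 2 replicate 3 or wild-type replicate 1 or 3.

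PS2, a phosphatase gene of this list, is shown for its P1BS motif (GNATATNC on either strand, in capitals), the element that PHR1 is known to read. It held 71.2, 31.1 and 36.5 CPM in overexpressor 2, against 0.564, 5.84 and 0.69 CPM in wild type, and rose by 4.3 ± 0.74 (adjusted p = 0.0025). P1BS occurred in 26.7% of the phosphate windows (4 of 15), 16.7% of the anthocyanin windows and 15.4% of the jasmonate windows. Those of the other lists searched held it in 2.13% to 11.1%. The share was 6.55% of all windows, 7.43% of those before genes called higher and 6.8% of those before genes called lower. The sequence is RefSeq TAIR10.1, chr1:27466349-27466648, minus strand, ending at the annotated gene start.
PS2: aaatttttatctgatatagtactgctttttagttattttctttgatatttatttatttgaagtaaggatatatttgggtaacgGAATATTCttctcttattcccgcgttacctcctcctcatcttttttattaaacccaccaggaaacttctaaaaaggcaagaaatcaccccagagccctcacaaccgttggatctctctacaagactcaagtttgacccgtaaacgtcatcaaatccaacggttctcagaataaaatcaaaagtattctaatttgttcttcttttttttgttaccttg

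Jasmonate is known for defence against chewing insects and salicylic acid for defence against biotrophic pathogens. In the jasmonate list 17 of 26 tested genes rose, PDF1.2 fell and 8 did not pass the test (median 1.25). JAZ9, a repressor raised by the hormone, held 880.1, 585 and 555 CPM in overexpressor 2, against 161, 151 and 105.1 CPM in wild type, and rose by 2.28 ± 0.30 (adjusted p = 0.000574). VSP2, a storage protein of wounded leaves, held 1493, 674 and 667 CPM in overexpressor 2, against 46.3, 23.2 and 15.3 CPM in wild type. Replicate 1 of overexpressor 2 was the highest of its group for both genes, and the list's median in it was 1.83 over the wild-type mean, against 0.93 and 0.95 in replicates 2 and 3. VSP1 (5.05 ± 0.57), whose reads may be shared with VSP2 (5.06 ± 0.63), AOS (1.45 ± 0.21), the entry enzyme of jasmonate synthesis, and JAZ12 (1.1 ± 0.15) rose too. PDF1.2, a defensin that also needs ethylene, fell by 2.79 ± 0.60 (adjusted p = 0.00682). MYC2, the main transcription factor of the response, had 0 counts in all 6 libraries and has 98.5% of its span covered by an opposite-strand locus, so its level is not known.

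In the salicylic acid list 9 of 21 tested genes fell and EDS5 rose, while 11 did not pass the test (median -0.89). EDS1, a hub of the pathway, held 18.8, 17.3 and 15.9 CPM in overexpressor 2, against 53.6, 46.0 and 35.0 CPM in wild type, and fell by 1.37 ± 0.24 (adjusted p = 0.00179). SAG101 (-0.85 ± 0.14), its partner, ICS1 (-1.0 ± 0.23), the main synthesis enzyme, and SARD1 (-1.5 ± 0.37), which activates it, fell, as did PR5 (-2.21 ± 0.62). EDS5, the chloroplast exporter of the hormone's precursor, held 28.5, 25.6 and 22.4 CPM in overexpressor 2, against 19.7, 17.1 and 11.1 CPM in wild type and rose by 0.67 ± 0.21 (adjusted p = 0.0248). The count lower was 4 with overexpressor 2 replicates 2 and 3 merged, and likewise 4 without overexpressor 2 replicate 2, overexpressor 2 replicate 3 or wild-type replicate 1. The call of EDS5 was lost at an adjusted p of 0.0615 to 0.0771 without overexpressor 2 replicate 1 or 2, and that of PR5 at an adjusted p of 0.063 to 0.0739 without overexpressor 2 replicate 2 or 3 or wild-type replicate 1. PR1, the usual marker, did not pass the test (-1.99 ± 1.22). Genes of touch and early wounding, which respond within minutes of handling, fell for 10 of 18 tested and rose for none (median -1.1). TCH3, a calmodulin-like gene, held 29.8, 15.3 and 13.9 CPM in overexpressor 2, against 162, 118 and 107 CPM in wild type, and fell by 2.72 ± 0.40 (adjusted p = 0.00108). ERF6 (-2.11 ± 0.42), XTH22 (-2.74 ± 0.58), EXO70B2 (-1.46 ± 0.32) and TCH2 (-0.95 ± 0.24) fell too. The count was 6 with the merge and without overexpressor 2 replicate 2 or 3, and the median was -0.54 without wild-type replicate 2. Opposite-strand loci cover 43.9% of TCH3 and 34.3% of TCH2.

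Of 12 tested heat-shock and chaperone genes, 5 rose and 2 fell (median 0.73). HSP70 held 136, 141 and 140.1 CPM in overexpressor 2, against 12.1, 17.9 and 9.32 CPM in wild type, and rose by 3.41 ± 0.48 (adjusted p = 0.00098). HSP90.1 (1.31 ± 0.19), MBF1C (1.15 ± 0.21), HSFA2 (1.11 ± 0.25) and DREB2A (1.47 ± 0.33) rose. The chaperones of the endoplasmic reticulum BIP2 (-1.28 ± 0.40) and BIP3 (-2.86 ± 0.92) fell, but the call of BIP2 was lost at an adjusted p of 0.0608 to 0.114 without overexpressor 2 replicate 1, 2 or 3 or wild-type replicate 1 or 2, and that of BIP3 at an adjusted p of 0.0706 to 0.106 without overexpressor 2 replicate 1, 2 or 3 or wild-type replicate 1 or 2. BIP2 is a near copy of BIP1, so its reads are uncertain. In the senescence list 4 of 13 tested genes rose and WRKY53 fell. The median of 0.16 has no stable sign, at -0.08 without overexpressor 2 replicate 1, 0.27 without overexpressor 2 replicate 2 or 3, 0.65 without wild-type replicate 2 and 0.01 without wild-type replicate 3. PPH, which strips the tail from chlorophyll, held 266, 196 and 196 CPM in overexpressor 2, against 75.3, 118 and 76.8 CPM in wild type, and rose by 1.28 ± 0.20 (adjusted p = 0.000892). The chlorophyll-breakdown genes NYE1 (0.75 ± 0.18) and PAO (0.52 ± 0.16, lost at an adjusted p of 0.0727 to 0.0805 without overexpressor 2 replicate 1 or wild-type replicate 3) rose, and WRKY53, an early senescence factor, fell by 2.24 ± 0.45. Of 8 tested low-oxygen genes, ADH1 rose (1.75 ± 0.29) and PGB1 (-3.72 ± 0.67), SUS4 (-2.48 ± 0.51) and LBD41 (-1.22 ± 0.39) fell, all 3 with less than 4 CPM in either group. The call of LBD41 was lost at an adjusted p of 0.0647 to 0.104 without overexpressor 2 replicate 2 or 3 or wild-type replicate 1 or 3. The number higher was 2 without overexpressor 2 replicate 3 and 3 without wild-type replicate 2.

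In the cell wall list, the expansins and the xyloglucan enzymes that let cells enlarge, 15 of 18 tested genes fell and none rose (median -2.30). EXPA1 held 32.7, 28.5 and 32.3 CPM in overexpressor 2, against 319, 216 and 402 CPM in wild type, and fell by 3.32 ± 0.23 (adjusted p = 5.96e-05). XTH7 held 25.4, 26.8 and 24.1 CPM in overexpressor 2, against 208, 135 and 226 CPM in wild type, and fell by 2.90 ± 0.24 (adjusted p = 0.000101). XTH4 (-3.45 ± 0.31), EXPA3 (-2.34 ± 0.29) and EXPA8, named above, fell as well. In all 5 the groups were well apart. Of 17 tested auxin and brassinosteroid genes 9 fell and none rose (median -0.56). IAA29, an auxin-response gene, held 1.74, 1.87 and 2.23 CPM in overexpressor 2, against 11.5, 22.3 and 16.3 CPM in wild type, and fell by 3.10 ± 0.34 (adjusted p = 0.000265). The brassinosteroid synthesis genes BR6OX2 (-2.37 ± 0.24) and CPD (-1.0 ± 0.12), the hormone-inactivating BAS1 (-2.24 ± 0.32) and IAA19 (-1.81 ± 0.23) fell. In the cell cycle list 8 of 16 tested genes fell and none rose (median -0.65). The list also holds inhibitors of the cycle, KRP1, KRP2, SIM and SMR1. The replication gene MCM2 fell by 1.52 ± 0.20, PCNA1 by 1.55 ± 0.35 and MCM5 by 0.89 ± 0.21, and the D-type cyclins CYCD3-3 and CYCD3-2 fell by 1.12 ± 0.19 and 0.95 ± 0.15. These are low in mature leaves, where MCM2 held 3.64, 3.11 and 4.36 CPM in overexpressor 2, against 10.5, 8.95 and 12.6 CPM in wild type.

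Nitrogen assimilation fell in 12 of 17 tested genes and rose in 1 (median -0.76). NIA1, a nitrate reductase, held 34.6, 36.3 and 32.6 CPM in overexpressor 2, against 101, 67.5 and 97.8 CPM in wild type, and fell by 1.37 ± 0.15 (adjusted p = 0.000211). The glutamine synthetases GLN1.2 (-1.31 ± 0.16) and GLN1.4 (-1.64 ± 0.23) and the glutamate dehydrogenase GDH1 (-1.03 ± 0.15) fell, while the glutamine synthetase GLN1.3 held 70.9, 56.4 and 49.9 CPM in overexpressor 2, against 18.4, 27.2 and 21.0 CPM in wild type, and rose by 1.41 ± 0.20 (adjusted p = 0.000639). In glucosinolate synthesis 9 of 24 tested genes rose and 1 fell (median 0.28), and 16 rose with library size as the only scaling (median 0.54). The indole branch is split here, as CYP79B2 (1.15 ± 0.20), CYP79B3 (1.13 ± 0.25) and MYB34 (0.94 ± 0.17) rose while MYB51, another of its MYB factors, fell by 2.07 ± 0.39. MAM3 (0.90 ± 0.18), of the aliphatic branch, rose, although its reads may be shared with MAM1. In ribosome assembly 5 of 17 tested genes (29.4%) were called higher and 0 lower, against 20.6% and 21.5% of all genes tested. The median was 0.23, and 0.34 without wild-type replicate 3. NUC2, a nucleolin, held 9.14, 7.2 and 8.62 CPM in overexpressor 2, against 2.87, 2.95 and 2.22 CPM in wild type, and rose by 1.63 ± 0.22 (adjusted p = 0.000558). The other 4 changed little, NUC1 by 0.53 ± 0.16, BRX1-1 by 0.50 ± 0.15, APUM24 by 0.43 ± 0.13 and NOP58 by 0.40 ± 0.14. The count was 1 with overexpressor 2 replicates 2 and 3 merged and 15 with library size as the only scaling. It was 2 without overexpressor 2 replicate 2, 1 without overexpressor 2 replicate 3 and 3 without wild-type replicate 1 or 2.

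Clock genes moved in more than one phase. Of 28 tested, 14 rose and 3 fell (median 0.41). RVE8, a morning activator, held 32.3, 28.4 and 29.4 CPM in overexpressor 2, against 14.6, 17.3 and 10.4 CPM in wild type, and rose by 1.09 ± 0.17 (adjusted p = 0.000856). ELF4, an evening gene, rose by 2.00 ± 0.32, LNK1 by 0.83 ± 0.13 and the RNA-binding protein GRP8 by 0.64 ± 0.10. CHE held 24.7, 24.8 and 25.7 CPM in overexpressor 2, against 113, 74.7 and 137 CPM in wild type, and fell by 2.11 ± 0.20 (adjusted p = 0.000158), and COL2 (-0.97 ± 0.17) and CDF2 (-0.46 ± 0.16) fell too. The call of CDF2 was lost at an adjusted p of 0.0658 to 0.15 without overexpressor 2 replicate 2 or 3 or wild-type replicate 1, 2 or 3, and loci on the opposite strand cover 60.8% of COL2. No label names the hour of harvest, and its part in the result was not tested.

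**Figure D5:**
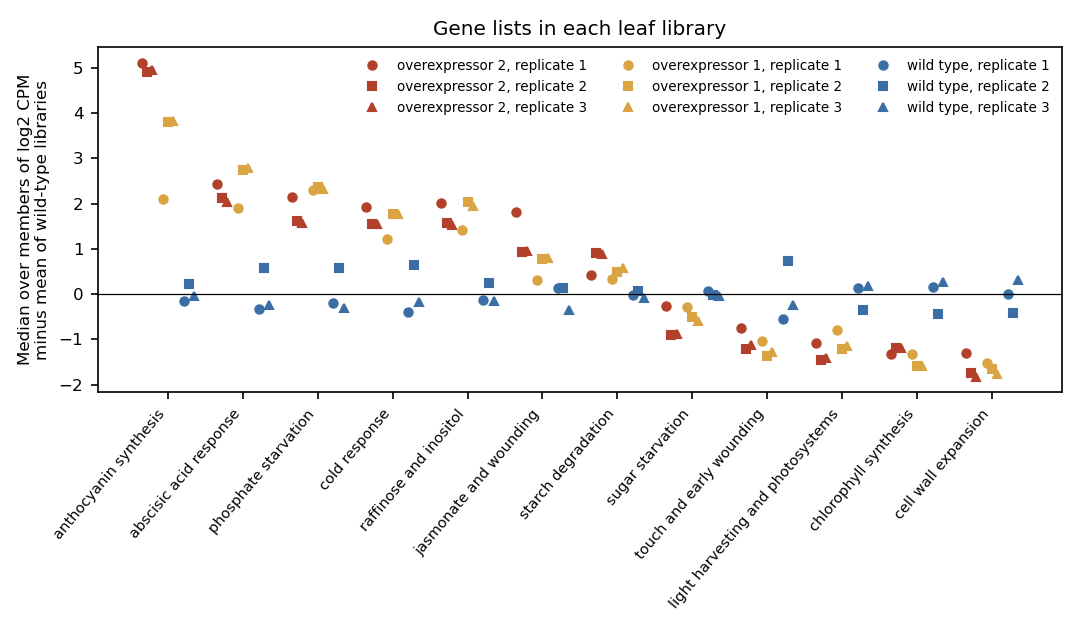
Median over tested members of 12 gene lists, as log2(CPM + 0.5) minus the mean of the wild-type libraries, in each leaf library, with overexpressor 2 at the left, overexpressor 1 in the middle and wild type at the right of each list. Wild-type replicate 2 lies toward the overexpressors on the abscisic acid (0.58), phosphate (0.57) and cold (0.65) lists, and overexpressor 2 replicate 1 stands highest on the jasmonate list (1.83).

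Markers of cell types were read for the label of leaf tissue. The 5 mesophyll markers summed to 26840 to 31510 CPM in overexpressor 2 and 54800 to 81790 CPM in wild type, and all 5 fell. These 5 genes also belong to the photosystem and Calvin cycle lists above, so the sum is no separate reading of cell type. The 9 guard cell markers summed to 627 to 680 CPM in overexpressor 2 and 2579 to 3277 CPM in wild type. Most of that sum is TGG1, a myrosinase, with 623, 570.2 and 568 CPM in overexpressor 2, against 2737, 2515 and 3215 CPM in wild type, which fell by 2.26 ± 0.18 (adjusted p = 7.5e-05). MYB60 (-0.93 ± 0.19) and ALMT12 (-0.77 ± 0.16) fell, the potassium channel GORK rose (1.1 ± 0.30) and the other 5 did not pass the test. Of 8 tested epidermal markers 5 fell, namely ATML1 (-1.04 ± 0.13), KCS1 (-1.02 ± 0.19), PDF2 (-0.67 ± 0.14), FDH (-0.53 ± 0.11) and CER5 (-0.33 ± 0.10, lost at an adjusted p of 0.0512 to 0.111 without overexpressor 2 replicate 1 or 3 or wild-type replicate 1 or 2). The 9 epidermal markers summed to 1182 to 1485 CPM in overexpressor 2 and 1275 to 1673 CPM in wild type, with GL1 at 0 throughout. The 7 phloem companion cell markers summed to 1044 to 1061 CPM in overexpressor 2 and 947.5 to 1011 CPM in wild type, and AHA3 alone rose (0.28 ± 0.10), a call lost at an adjusted p of 0.0888 to 0.123 without overexpressor 2 replicate 2 or 3 or wild-type replicate 1 or 3. The part of cell types in the results was not tested.

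Markers of flowers and of seed storage were low, while those of the root and of the floral transition were not all so. The 8 flower markers summed to at most 1.25 CPM in overexpressor 2 and 1.13 CPM in wild type, with AP1 and LFY at 0. The 8 seed storage markers summed to at most 0.0561 CPM in overexpressor 2 and 0.0526 CPM in wild type, and 6 of them were at 0. The 9 root markers summed to 23.9 to 30.1 CPM in overexpressor 2 and 30.4 to 31.7 CPM in wild type. Among them PYK10, a beta-glucosidase of roots, had 91 counts in overexpressor 2 and 1 in wild type, a ratio of 94.8 (95% counting interval 16.6 to 3790), and SHR fell (-0.96 ± 0.21). The 10 floral transition markers summed to 241.5 to 296 CPM in overexpressor 2 and 224 to 245 CPM in wild type, and SPL9 rose (0.73 ± 0.22), with overlap between the groups, a call lost at an adjusted p of 0.0537 to 0.0917 without overexpressor 2 replicate 2 or 3 or wild-type replicate 1 or 2. SPL3 is covered over 97.6% of its span and stood at 0.

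Overexpressor 2 and overexpressor 1 were then compared directly, which asks where the lines differ. ERDL4 held 604, 578 and 568 CPM in overexpressor 2, against 350.2, 355 and 359 CPM in overexpressor 1, a difference of 0.72 ± 0.13 on the log2 scale that did not pass the test over all genes (adjusted p = 0.0782). In all, 10 of 18703 genes (0.0535%) were called, 6 higher and 4 lower in overexpressor 2, and 2738 genes had an unadjusted p under 0.05. FLS1, which makes flavonols from the dihydroflavonols that DFR also uses, held 8.52, 13.2 and 12.9 CPM in overexpressor 2, against 2.83, 2.79 and 3.04 CPM in overexpressor 1 (2.00 ± 0.26, adjusted p = 0.035). ARR7, a response regulator of cytokinin signalling, held 14.2, 14.0 and 15.1 CPM in overexpressor 2, against 4.55, 4.26 and 4.62 CPM in overexpressor 1 (1.69 ± 0.18, adjusted p = 0.0294). Wild type held 18.8, 12.3 and 21.2 CPM of ARR7, and the change of overexpressor 2 over wild type did not pass the test (adjusted p = 0.236). NADK2, the chloroplast NAD kinase, held 69.8, 70.8 and 70.0 CPM in overexpressor 2, against 124, 117 and 115 CPM in overexpressor 1 (-0.76 ± 0.09, adjusted p = 0.0294). NIP6;1, a boron channel, differed by -0.87 ± 0.11 (adjusted p = 0.03). These 4 genes were picked from the called ones by a symbol, a mean of at least 5 CPM and no overlap between the lines. Their lack of overlap is therefore no further result. With replicates 2 and 3 merged, in overexpressor 2 or in both lines, edgeR called 0 genes, and 1791 and 1244 had an unadjusted p under 0.05. DESeq2 called 724 on the unmerged libraries. The number ran from 0 without overexpressor 2 replicate 2 or overexpressor 1 replicate 3 to 492 without wild-type replicate 2. It was 171 without overexpressor 2 replicate 1, 30 without overexpressor 1 replicate 1, 2 without overexpressor 2 replicate 3, 3 without wild-type replicate 3, and 1 without overexpressor 1 replicate 2 or wild-type replicate 1.

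The comparisons of the lines with wild type share the wild-type libraries, so their values are given side by side without a measure of likeness. The anthocyanin list had a median of 5.25 in overexpressor 2 and 3.63 in overexpressor 1 over wild type, and the phosphate list 1.79 and 2.41. DFR changed by 8.21 ± 0.99 in overexpressor 2 and 6.41 ± 0.93 in overexpressor 1. Ribosome assembly had a median of 0.23 in overexpressor 2 and -0.16 in overexpressor 1. Over wild type, 5 of its members were called higher and 0 lower in overexpressor 2, and 1 higher and 5 lower in overexpressor 1. The jasmonate list had 1.25 and 0.62, the photosystem list -1.31 and -1.05. No member of these 5 lists other than FLS1 passed the test of the difference between the lines.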

How the data were processed

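Leaf RNA of overexpressor 2, overexpressor 1 and wild type was sequenced in 3 libraries each. Per the labels' protocols, libraries were directional. Per the submitters' processing notes, the processing named fastp, HISAT2 2.0.5, StringTie 1.3.3 and the TAIR10 build, while for the counting tool and strand handling the setting is not given in the sources used here. Raw counts per gene were deposited by the authors for all samples in 1 table, whose 32833 genes include 32548 found in RefSeq's TAIR10.1 annotation. All else was computed here.

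The counts of the 9 leaf libraries were filtered with filterByExpr, scaled by TMM and fitted with edgeR 4.0.16 in R 4.3.3, by robust quasi-likelihood with group as the only term and 6 residual degrees of freedom. Fold changes are log2 of overexpressor 2 over wild type, ± SE. Each SE was derived from the test, as the absolute log2 fold change divided by the square root of the F statistic. It is therefore approximate and not a separate estimate. Adjusted p-values are Benjamini-Hochberg values over all 18703 genes tested, called under 0.05. Total counts of 17318810 to 23806098 in the 6 libraries set the precision, and intervals on counts cover counting error only. Alternatives used DESeq2 1.42.0, limma 3.58.1, other scalings and filters, a replicate block, merged replicates and each library left out in turn. The script was tested on simulated data with independent replicates, the same dispersion for all genes and few changed genes. That setting lacks the close replicates and the broad change of these libraries, so it does not speak to them.

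The gene lists and the genes named were chosen with earlier results of these data known. Named by rule were carriers and sugar genes chosen by name, the 10 highest and 10 lowest called genes with at least 5 CPM and no overlap, up to 5 called genes of each list by smallest p with those that go against its majority, and genes that differ between the lines. ASN1, CBF1, CBF2, CBF3, COR78, DIN11, KIN10, NCED3, PHR1, PR1, PS2, RD29B, SEN5, SPS3F, SUC4, TOR, TPS1, F3H, MYC2, AMT1.1, HUP9, GUN4 and the promoters shown were chosen after their values were seen. Of the 222 genes named by the rule, 61 share part of their span with another annotated locus.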

Additional observations from a re-analysis of the deposited data

Results flagged for a closer look

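For 10 genes the difference between overexpressor 2 and overexpressor 1 passed edgeR's quasi-likelihood test over all genes. Of these, 6 were higher in overexpressor 2. ARR6 (2.16 on the log2 scale) and ARR7 (1.69) are response regulators of cytokinin signalling, and FLS1 (2.00) makes flavonols. ARR6 held 6.00, 6.11 and 7.21 CPM in overexpressor 2, against 1.49, 1.62 and 1.21 CPM in overexpressor 1, and 15.8, 7.95 and 17.56 CPM in wild type. The loci AT3G29644 (1.5), AT4G13577 (1.18) and AT5G57120 (0.62) complete the group. For ARR7, AT3G29644 and AT4G13577 overexpressor 2 and wild type overlapped, and the difference between them did not pass the test (adjusted p = 0.236, 0.957 and 0.111), while all 3 overexpressor 1 libraries lay below wild type.

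The other 4 were lower in overexpressor 2. They were AT3G06355 (-2.69), AT5G35970 (-0.90), the boron channel NIP6;1 (-0.87) and the NAD kinase NADK2 (-0.76). AT3G06355 held 2.41, 3.21 and 4.05 CPM in overexpressor 2, against 21.3, 20.3 and 21.1 CPM in overexpressor 1. ARR6 and the 5 loci without a symbol were chosen after their values were seen, each because it was called.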

How the results depend on the processing

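Over 20 alternative settings the log2 fold change of ERDL4 kept its direction and its call, at 2.11 to 2.45. Genes called higher and lower in overexpressor 2 numbered 6895 and 2372 with library size as the only scaling, 1469 and 1712 with a fold change of at least 2 as well, and 2236 and 2364 at an adjusted p under 0.01. Merging replicates 2 and 3 in both lines left 2636 higher and 2670 lower. Leaving out each of the 6 libraries compared in turn gave 3099 to 4421 higher and 2810 to 4090 lower, and leaving out those of overexpressor 1 gave 3523 to 4017 higher and 3782 to 4333 lower. The 6 libraries alone gave 3403 and 3804.

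The replicate block gave 3731 genes higher and 3995 lower, with 7377 of the 7867 calls kept. Same-numbered samples of overexpressor 2 and wild type correlated at 0.151, -0.079 and 0.184 in their deviations from the group means. Samples with different numbers correlated at -0.247 to 0.200. With 3 samples in each group, and replicates 2 and 3 of overexpressor 2 closely alike, these values cannot tell whether equal numbers share a batch.

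For overexpressor 2 against overexpressor 1, where 10 genes were called, DESeq2 gave 724, no filter on low counts 25, all 18 libraries in 1 fit 164, the replicate block 1, merging replicates 2 and 3 in overexpressor 2 or in both lines 0, a 2-fold minimum 6 and an adjusted p under 0.01 gave 1. Leaving out each library in turn gave 0 to 492. The cause was not tested.

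The 239 named genes other than ERDL4 gave 4739 values under these settings. Of these values 4477 stayed on their side of the threshold, 254 were no longer called, 8 became called and 0 reversed. Of 1520 list counts, 138 moved by over 1.5 times. Depth limits genes below about 1 CPM.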

Other observations

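Several well-known members of the lists could not be judged in these leaves. AMT1.1, an ammonium carrier, had 0 counts in all 6 libraries, with 81.1% of its span covered by a locus on the opposite strand. HUP9, a low-oxygen gene, had 0 counts and is covered throughout its span. GUN4, which activates magnesium chelatase, had 12 counts in overexpressor 2 and 17 in wild type, with 73% covered. Across protein-coding genes, the share at 0 counts was 22.1% with none of the span covered. It was 7.21% where part of the span, up to 50%, was covered and 29.7% at 50% to 90%. The cause was not tested, and levels of such genes are not known from this table.

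The evening element, AAATATCT on either strand, occurred in 28.6% of the clock windows (8 of 28) and 33.3% of the cold windows (6 of 18), against 5.85% of all windows. Anthocyanin windows held it in 16.7%, jasmonate windows in 11.5% and those of the other lists searched in 4.26% to 8.33%. Its share was 7.07% before genes called higher and 5.75% before genes called lower. For the G-box, CACGTG, the share was 27.8% of the anthocyanin windows, 32.1% of the clock windows and 22.2% of the cold windows, against 8.26% of all. It was also 19.2% of the jasmonate, 19.1% of the photosystem and 16.7% of the abscisic acid windows, and 0% of the phosphate and cell wall windows. Genes called higher had 12.4% and genes called lower 6.8%.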
